A study of Saccharomyces cerevisiae with 11 samples.

Results

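The small subunit of the yeast mitochondrial ribosome is built from proteins that are almost all encoded in the nucleus, together with the 15S ribosomal RNA and Var1, which come from mitochondrial DNA. From knowledge of the subunit and not from any measured value, 31 nuclear genes for such proteins were taken by name out of 6834 deposited features. They carry MRPS, MRP or RSM names or are PET123, NAM9 or SWS2, so subunit proteins with other names are not covered. All 31 passed the filter on low counts, as did 5456 features in all. Of these genes, 19 encode relatives of bacterial ribosomal proteins and 12 encode proteins particular to mitochondria. They lie on 12 chromosomes and have coding lengths of 276 to 1887 bp.

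The libraries are total RNA from a single strain of Saccharomyces cerevisiae, clone A9 of ABF1-aa-V5, built for anchor-away. In such a strain rapamycin carries the tagged endogenous Abf1 out of the nucleus on a ribosomal protein anchor. A plasmid supplied a second Abf1 or none: EM shuffle (2 libraries), LS15 (2), NCS506 (2), an empty plasmid called no Abf1 (3), and WT Abf1 (2), which is full length. EM shuffle has the letters of the essential motif of the second disordered region reordered and did not sustain growth in the study. LS15, shuffled in a different stretch of that region, and NCS506, randomly mutagenised with few point mutations, did, but at the study's lowest growth score. All 3 lack the first disordered region, so they differ from WT Abf1 in more than the named change. Every culture was grown without leucine and received rapamycin at 8 µg/mL for 75 min, except WT Abf1 replicate 1, which received it for 60 min in another batch. Among the libraries used here that batch holds no other, so its batch, its shorter treatment and the clone itself cannot be told apart, and each comparison with WT Abf1 used libraries of both kinds. Replicates are independent transformant clones by the protocol, and the WT Abf1 libraries carry no number of their own.

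Abf1 is an essential DNA-binding protein that keeps nucleosomes off promoters and was linked early to genes of ribosomes and of mitochondria. Genes of the mitochondrial ribosome have a second, post-transcriptional arm of control: the RNA-binding protein Puf3 attaches to an element downstream of the stop codon of many of their mRNAs. The subunit itself decodes the few mRNAs of the mitochondrial genome, which encode mainly subunits of the respiratory chain.

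The totals ran between 920044 counts (LS15 replicate 1) and 2195476 counts (NCS506 replicate 1), and the 31 genes took 0.106% to 0.155% of them. The median count of a gene in a library was 56, so single genes are measured with a counting error that is not small. Levels are given as CPM (counts scaled to a common library size) after TMM scaling, which also takes up differences in composition. LEU2, the marker gene of the plasmid, had 1174 and 1136 CPM with WT Abf1 and 796, 756 and 741 CPM with no Abf1. With EM shuffle it had 208 and 460 CPM, with LS15 237 and 342 CPM and with NCS506 547 and 537 CPM. Why its level differed was not tested. No pair of replicates was as close as sampling noise alone would leave it, and over the 31 genes the root mean square log2 difference between replicates was 0.63 for LS15 and between 0.31 and 0.51 for the others. Per kilobase of coding sequence, the highest level with WT Abf1 was that of MRPS12 (relative of bacterial S12) at 169 CPM per kb, followed by RSM19 (relative of S19) at 98.5, and the lowest was that of RSM22, a putative methyltransferase, at 24.8.

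The consensus of Abf1 was searched on both strands in the 400 bp upstream of each start codon. It was found at 9 of the 31 genes, a share of 29.0%, against 31.8% of 44 genes of the large mitochondrial subunit and 16.1% of 5866 protein-coding genes. The windows are shown because they are what separates these 9 genes from the rest at the level of sequence. Each is printed in the direction of its gene, with the match in capitals and 20 bases on either side, from RefSeq's copy of the R64-1-1 genome.
MRPS9 (YBR146W), chrII:535063-535115: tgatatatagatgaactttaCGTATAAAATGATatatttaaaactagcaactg
MRPS16 (YPL013C), chrXVI:529457-529509: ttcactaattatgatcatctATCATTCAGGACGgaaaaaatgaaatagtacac
MRPS18 (YNL306W), chrXIV:58001-58053: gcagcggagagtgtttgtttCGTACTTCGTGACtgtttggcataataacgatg
MRPS18 (YNL306W), chrXIV:57800-57852: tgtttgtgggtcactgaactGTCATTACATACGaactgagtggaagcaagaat
RSM27 (YGR215W), chrVII:922003-922055: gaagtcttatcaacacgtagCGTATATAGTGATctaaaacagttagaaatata
MRP51, chrXVI:326421-326473: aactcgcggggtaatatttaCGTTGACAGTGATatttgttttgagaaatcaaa
RSM19, chrXIV:695432-695484: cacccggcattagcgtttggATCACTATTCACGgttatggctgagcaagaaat
RSM24, chrIV:814276-814328: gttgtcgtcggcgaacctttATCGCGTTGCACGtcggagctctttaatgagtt
PET123, chrXV:631985-632037: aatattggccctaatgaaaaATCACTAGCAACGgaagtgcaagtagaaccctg
NAM9, chrXIV:370244-370296: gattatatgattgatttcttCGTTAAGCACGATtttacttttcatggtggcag
Both half-sites are visible in each, separated by a spacer of 5 bases that the consensus leaves free. The match nearest to each gene lay 121 to 208 bp upstream of the start codon, and only MRPS18 held a pair of matches. A match describes letters in a window and does not show that Abf1 bound there.

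Of the 31 genes, 6 fell and 2 rose in cells with no Abf1 compared with WT Abf1. RSM27, MRPS9, MRPS18, RSM28, SWS2 and MRPS16 were lower, with log2 fold changes between −2.86 and −1.07, and RSM10 and MRP2 were higher, at 0.84 and 0.99. A gene counts as lower or higher where its adjusted p is under 0.05 in the quasi-likelihood test of edgeR, adjusted by Benjamini-Hochberg over all 5456 features. By that rule 23.4% of all features were called, 13.7% lower and 9.73% higher, so 8 of 31 is near the background, and genes of the subunit moved in both directions. The median log2 fold change of the 31 genes was 0.16, beside 0.02 over all features, with 13 negative and 18 positive values. Between groups, 8 of the 31 genes had every no Abf1 library below every WT Abf1 library, beside 28.0% of features, and 12 had every one above, beside 28.6%.

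**Figure D1:**
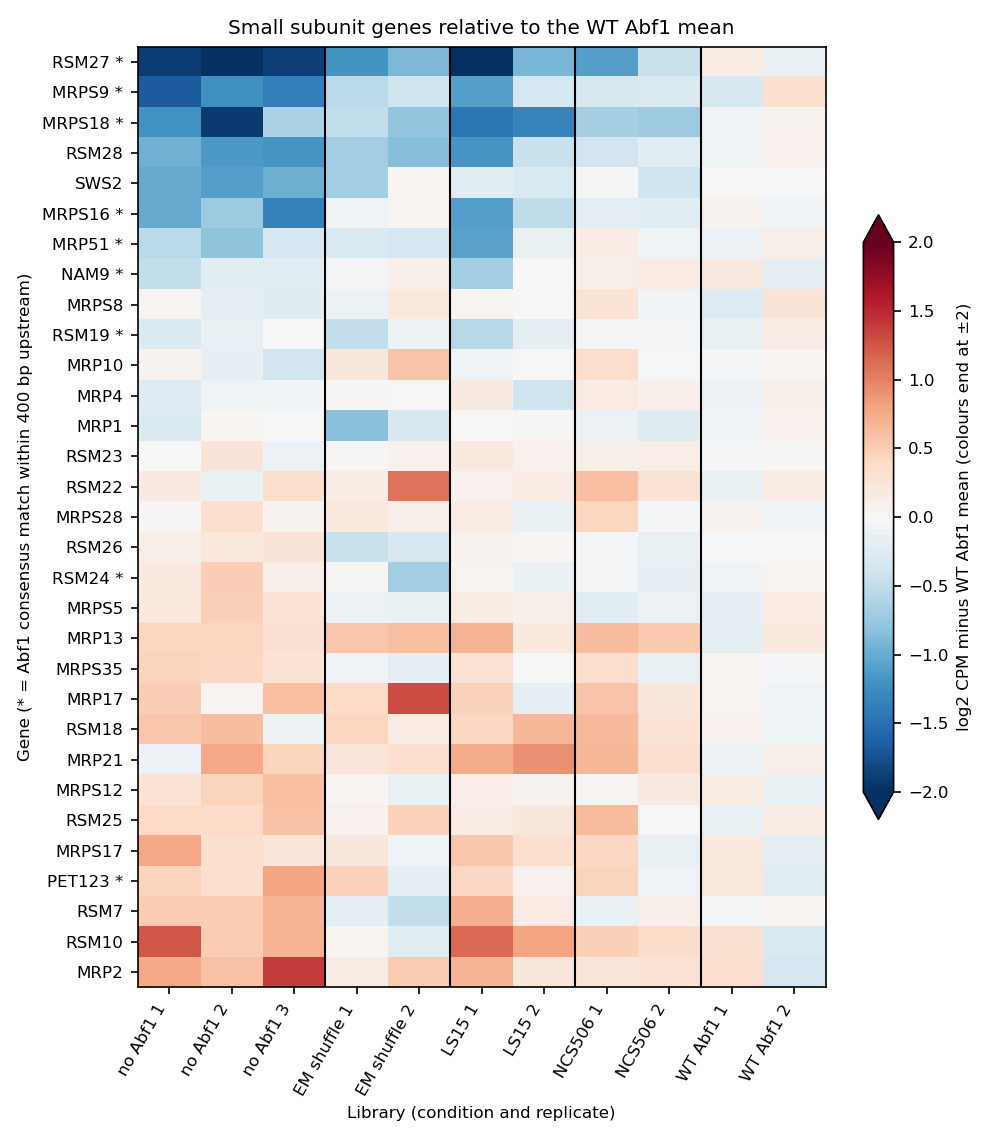
Heat map of the 31 genes (rows) in the 11 libraries (columns, in the order no Abf1, EM shuffle, LS15, NCS506, WT Abf1), coloured by log2 CPM minus the mean of the WT Abf1 libraries, with a star at the 9 genes that have an Abf1 match upstream. RSM27, MRPS9, MRPS18, RSM28, SWS2 and MRPS16 are below the WT Abf1 mean in the 3 no Abf1 libraries, at −3.60 (RSM27) to −0.63 (MRPS18). Most other rows are paler, though the uncalled MRP51 and MRP21 are at −0.80 and 0.78 in no Abf1 replicate 2.

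Among the relatives of bacterial proteins that fell, MRPS9 encodes the relative of S9, which in bacteria sits in the head of the subunit close to the bound tRNA. It lies on chrII:535260-536096 and stood at 14.04, 19.67 and 17.48 CPM with no Abf1, against 37.76 and 60.04 CPM with WT Abf1. The groups did not overlap. The gap between them was wider than the range inside the no Abf1 group but narrower than the range inside WT Abf1. The log2 fold change was −1.52 (SE, the standard error, 0.289, edgeR adjusted p = 0.00398). Mean levels were 17.1 ± 2.84 CPM (SD, n = 3) with no Abf1 and 48.9 ± 15.7 CPM (SD, n = 2) with WT Abf1.

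MRPS16 encodes the relative of S16 and lies on chrXVI:528985-529350. It had 12.03, 14.99 and 9.25 CPM with no Abf1, against 26.85 and 24.43 CPM with WT Abf1, and the log2 fold change was −1.07 (SE 0.285, edgeR adjusted p = 0.0192). All 3 no Abf1 libraries were well below both WT Abf1 libraries. The gene shares its upstream region with RRP12, a factor of ribosome export that is transcribed the other way from a start 372 bp away and fell too, by 1.41 on the log2 scale (adjusted p = 0.0122).

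MRPS18, despite its number the relative of bacterial S11, lies on chrXIV:58155-58808 and had 16.0, 9.37 and 24.7 CPM with no Abf1, against 36.9 and 41.2 CPM with WT Abf1. Its no Abf1 libraries scattered more widely in CPM than those of the other genes that fell, without reaching the WT Abf1 range. The log2 fold change was −1.24 (SE 0.308, edgeR adjusted p = 0.0144). Its divergent neighbour MCK1, a protein kinase gene 581 bp away, fell by 1.15 on the log2 scale (adjusted p = 0.00411).

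SWS2 encodes the relative of S13 and lies on chrXIV:476188-476619, with no Abf1 match in its window. It stood at 11.03, 10.30 and 11.31 CPM with no Abf1, against 23.50 and 23.74 CPM with WT Abf1. Replicates of both conditions were tight and the groups did not overlap, and the log2 fold change was −1.11 (SE 0.313, edgeR adjusted p = 0.0239). DESeq2 did not call it (adjusted p = 0.0503), and it was called in 6 of the 11 fits that each left out 1 library.

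The mitochondria-specific genes that fell, RSM27 and RSM28, encode proteins with no bacterial counterpart. RSM28 (YDR494W, chrIV:1436930-1438015) had 29.1, 25.3 and 24.7 CPM with no Abf1, against 54.5 and 61.4 CPM with WT Abf1. The groups were separated by more than the range inside either, at a log2 fold change of −1.14 (SE 0.228, edgeR adjusted p = 0.00516), although the 400 bp upstream hold no Abf1 match. RSM28 was the only gene of the 31 that was called in no Abf1 against WT Abf1 whichever single library was left out.

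RSM27 (chrVII:922175-922507) had the steepest drop and the fewest reads of the 31 genes. Its raw counts were 3, 0 and 3 with no Abf1, against 20 and 19 with WT Abf1, which is 3.01, 0 and 3.08 CPM against 16.8 and 13.3 CPM. A count of 0 in that no Abf1 library allows a level of up to 2.81 CPM. The fitted log2 fold change of −2.86 (SE 0.788, edgeR adjusted p = 0.0218) therefore rests on few reads. The ratio of summed counts after scaling was 0.133, with an exact 95% interval of 0.046 to 0.316 that covers counting error only. Upstream of RSM27, in the same orientation and 386 bp away, lies RPS0A, a gene of the cytosolic ribosome chosen for mention after its value was seen. It fell by 1.18 on the log2 scale (edgeR adjusted p = 0.00102). Other tandem pairs differed: NPC2, upstream of MRP10, and RPL11B, upstream of MRP13, fell, while MRP10 and MRP13 were not called. ADH5, MZM1 and EOS1, upstream of MRPS9, RSM28 and SWS2 in the same orientation, were not called.

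**Figure D2:**
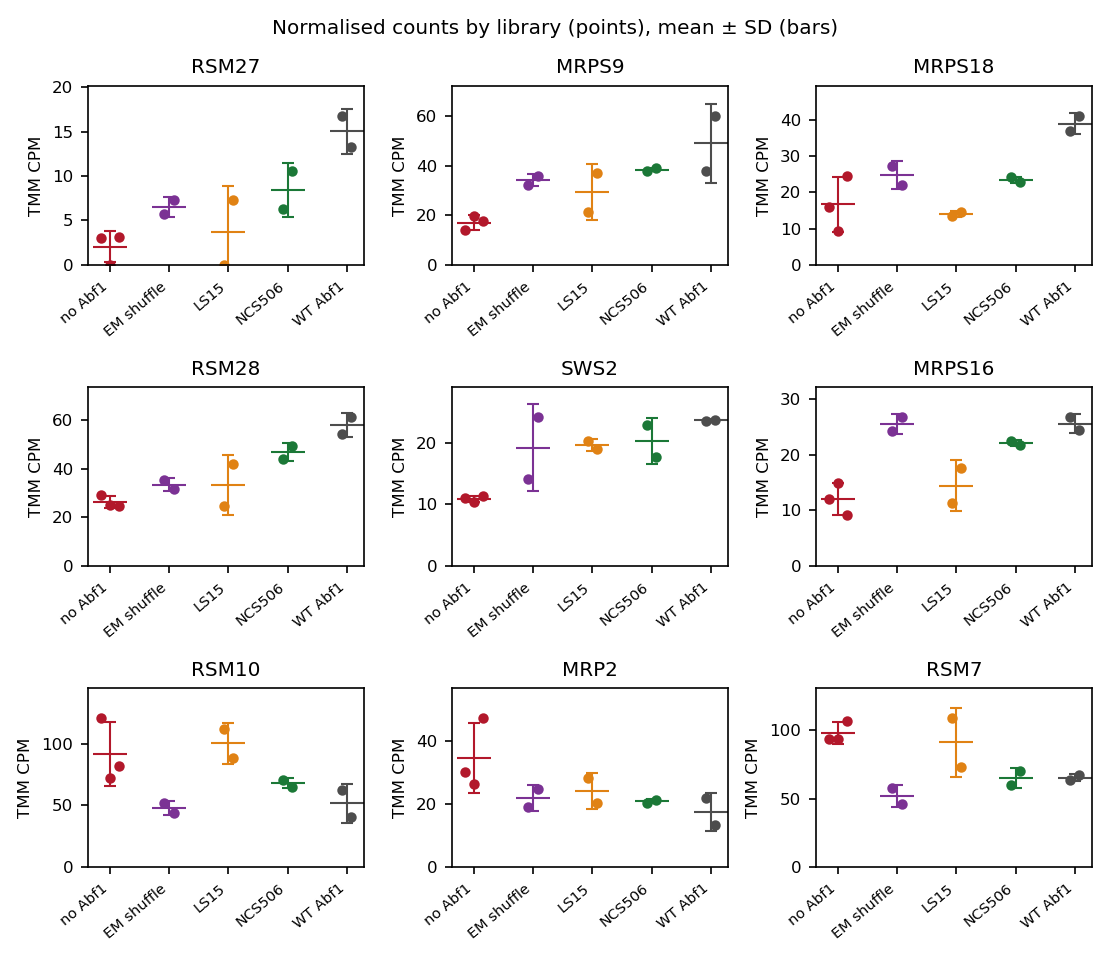
CPM of RSM27, MRPS9, MRPS18, RSM28, SWS2, MRPS16, RSM10, MRP2 and RSM7 in each library (points) with the mean and SD of each condition, on axes that start at 0. The first 6 panels have all no Abf1 points below the WT Abf1 points. RSM10 and MRP2 have them above, and RSM7 has its EM shuffle points, 57.6 and 46.3 CPM, below all of its no Abf1 points.

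In the other direction, RSM10 (YDR041W, chrIV:539803-540414), the relative of S10, had 121, 72.1 and 82.2 CPM with no Abf1, against 62.9 and 40.5 CPM with WT Abf1. The groups did not overlap, but the distance between the nearest libraries was smaller than the range inside either group. The log2 fold change was 0.84 (SE 0.259, edgeR adjusted p = 0.0358). MRP2 (YPR166C, chrXVI:876282-876629), the relative of S14, had 30.1, 26.2 and 47.3 CPM with no Abf1, against 21.8 and 13.3 CPM with WT Abf1, at a log2 fold change of 0.99 (SE 0.331, edgeR adjusted p = 0.0494). In both genes the WT Abf1 libraries themselves lay far apart, and DESeq2 did not call MRP2 (adjusted p = 0.0724). When the scaling factors were taken only from protein-coding genes without an Abf1 match, the median of all features moved to −0.09, and RSM10 and MRP2 were no longer called while the 6 lower genes were, a split of 6 lower and 0 higher beside the 6 and 2 given above (over all features, 914 lower and 379 higher beside 746 and 531).

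The remaining 23 genes were not called between no Abf1 and WT Abf1. Of these, RSM23 and MRP1 are shown because their absolute log2 fold changes were the smallest, so their small changes follow from the choice. RSM23, the DAP3-type GTP-binding protein of the subunit, had 64.2, 77.7 and 59.6 CPM with no Abf1, against 63.8 and 65.6 CPM with WT Abf1. MRP1, which has a fold related to superoxide dismutase, had 48.1, 59.9 and 58.6 CPM with no Abf1, against 54.5 and 62.1 CPM with WT Abf1. The log2 fold changes of these genes were 0.06 ± 0.166 and −0.07 ± 0.199 (standard errors), and their libraries overlapped. Just outside the threshold were RSM7, the relative of S7, at 0.58 (edgeR adjusted p = 0.0551), and MRPS12 at 0.44 (edgeR adjusted p = 0.0727), each with all no Abf1 libraries above the WT Abf1 ones.

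**Figure D3:**
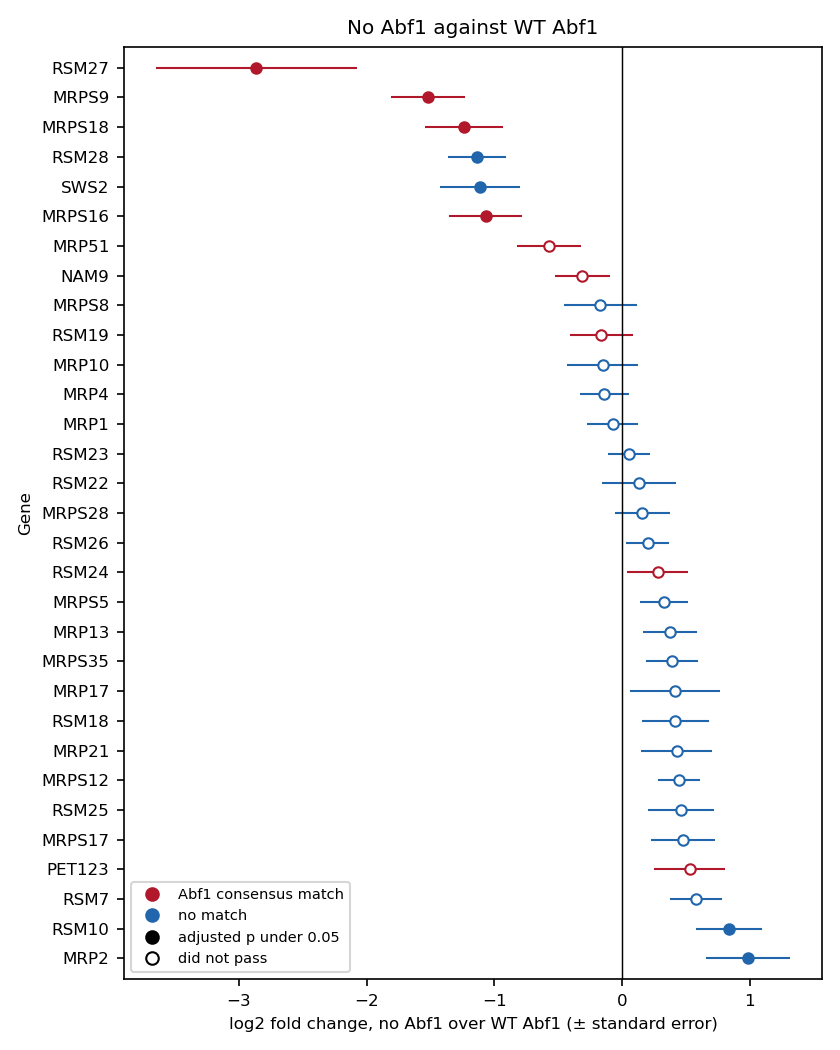
Log2 fold changes (points) with standard errors (bars) of the 31 genes in no Abf1 against WT Abf1, red for genes with an Abf1 match and blue for those without, filled where the adjusted p is under 0.05. The values span RSM27 at −2.86 to MRP2 at 0.99, with RSM27 well apart from MRPS9 at −1.52 and a gap between MRPS16 at −1.07 and MRP51 at −0.57, and 4 of the 9 red points lie among the 6 filled points on the left.

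Leaving out single libraries changed this list. The calls were RSM28 alone without WT Abf1 replicate 2, when the only WT library left is the one from the other batch with 60 min of rapamycin. Without WT Abf1 replicate 1, 5 genes were called (MRPS9, MRPS18, RSM28, RSM10 and MRP2), and without no Abf1 replicates 1, 2 and 3 the counts were 4, 4 and 3. The sign of all 8 changes was kept in each of these fits. Feature counts of these fits are not given here, so their calls cannot be set against the background. Where a condition is left with a single library, here and in the comparisons of the constructs, the fit assumes that it varies like the other conditions.

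Among the 9 genes with a match, 4 were lower (44.4%) and none was higher, with a median log2 fold change of −0.57. Of the 22 genes without a match, 2 were lower (9.09%) and 2 were higher, with a median of 0.35. The same split over all tested protein-coding genes gave 410 lower of 905 with a match (45.3%, median −0.60) and 328 lower of 4404 without (7.45%, median 0.09). The small subunit genes thus had shares near those of any gene with or without a match. In the large subunit, 6 of 14 genes with a match were lower (42.9%) and 2 of 30 without (6.67%).

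A match did not go with a drop in each case. PET123, a mitochondria-specific protein tied genetically to translation of COX3, had a log2 fold change of 0.53 (edgeR adjusted p = 0.185), and RSM24 of 0.28. RSM19 was at −0.16 and NAM9, the relative of S4, at −0.31 (edgeR adjusted p = 0.333). MRP51, which acts with the leaders of mitochondrial mRNAs, had 43.1, 35.6 and 49.3 CPM with no Abf1, against 57.9 and 68.4 CPM with WT Abf1, and did not pass the test (−0.57, edgeR adjusted p = 0.117). A stricter form of the consensus was met at only 3 of the 31 genes: MRPS9, MRPS18 and MRP51. The sequence TTACCCG, bound by the related factor Reb1 and searched on both strands, was present upstream of 5 genes (16.1%, beside 9.36% of all promoters), among which RSM10 was the only one called.

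**Figure D4:**
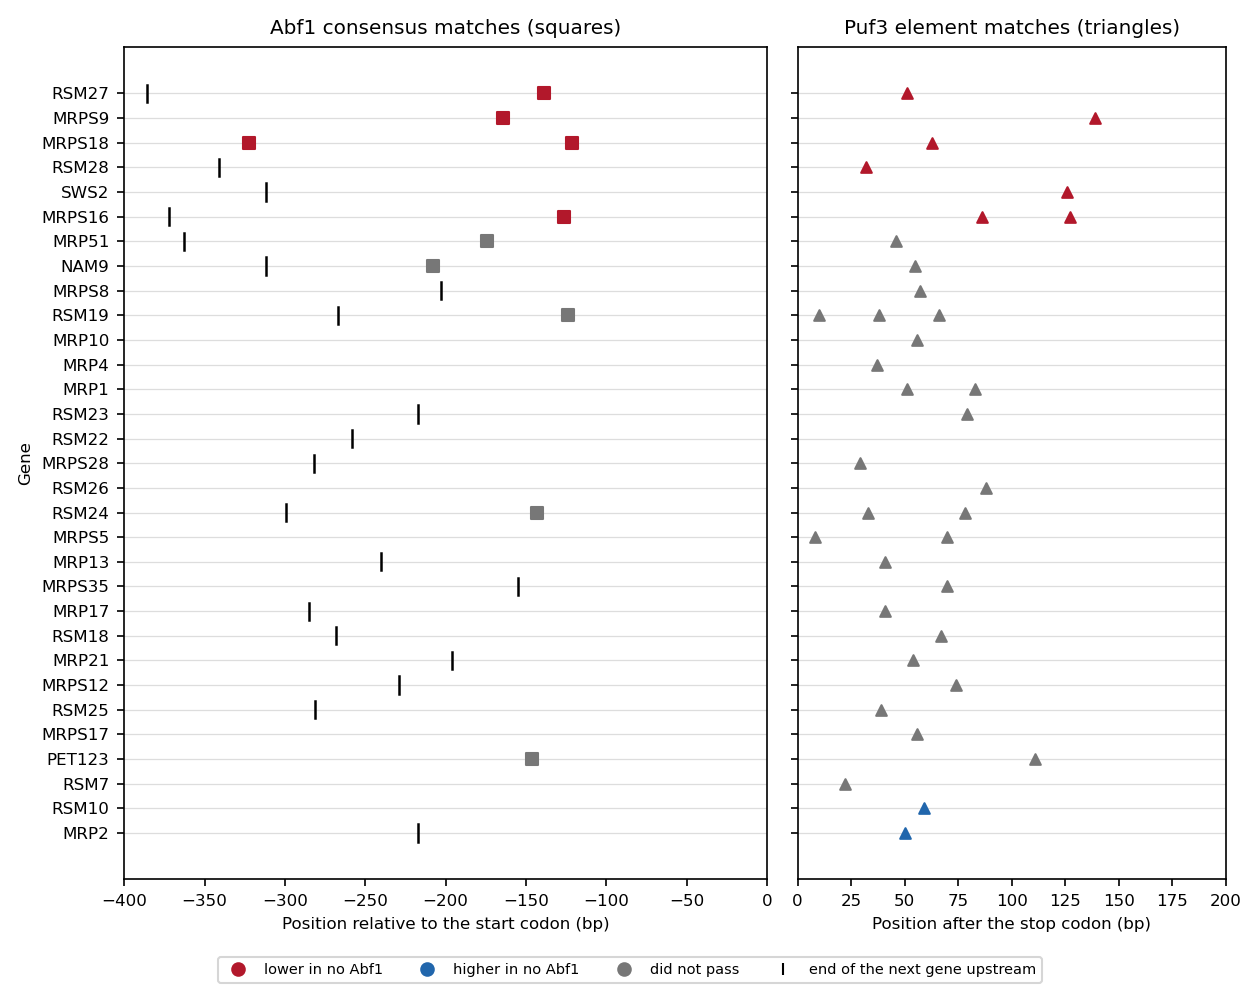
Distance in bp of Abf1 matches upstream of the start codon and of TGTANATA matches downstream of the stop codon, 1 row per gene, coloured by whether the gene was lower, higher or not called in no Abf1 against WT Abf1, with black ticks at the next gene upstream. The Abf1 matches nearest to the genes sit 121 to 208 bp upstream in lower and uncalled genes alike, and nearly every row has a downstream element.

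Downstream of the stop codon the genes are far more alike. The Puf3 element TGTANATA, read on the gene's strand within 200 bp of the stop codon, was present at 30 of the 31 genes (96.8%, RSM22 being the exception) and at all 44 large subunit genes, beside 14.3% of all protein-coding genes. There were 36 elements, 8 to 139 bp after the stop codon with a median of 56 bp. All genes that fell or rose carried it, as did all uncalled genes but RSM22, and windows of each kind are shown, each with the element in capitals and 8 bases on either side on the gene's strand of R64-1-1.
MRPS9, lower: gttattccTGTAAATAaagttata
RSM28, lower: tacataccTGTAAATAtctagtac
SWS2, lower: tcactcccTGTATATAatgtattt
RSM27, lower: tcatttcaTGTACATAcaaaatca
RSM10, higher: ttcgtactTGTAAATAaaataggt
MRP2, higher: tacgcactTGTAAATAaatacatg
RSM23, not called: atttctcaTGTACATAtaaataga
The elements of MRPS9, which fell, and RSM10, which rose, have the same 8 bases, 139 and 59 bp past the stop codon. This pair was chosen with its directions known, and the part of the element in these changes was not tested. The form with A at the free position was the most frequent, at 20 of the 31 genes (64.5%, beside 4.35% of all genes).

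The constructs were set against WT Abf1 and against no Abf1, and both sets of comparisons share control libraries. EM shuffle against WT Abf1 called none of the 31 genes, and 2.24% of all features. At an unadjusted p under 0.05 there were 6 genes, beside 999 of 5456 features, and DESeq2 called 0 of the 31 genes and 194 features. MRP17 and RSM22 were called higher without EM shuffle replicate 1, MRP1 lower without EM shuffle replicate 2 and RSM28 lower without LS15 replicate 2. The median log2 fold change was −0.00, within a range of −1.19 to 0.95.

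EM shuffle against no Abf1 called 6 of the 31 genes, beside 24.0% of all features, 11.1% lower and 12.9% higher. MRPS16 and MRPS9 were higher. MRPS16 had 24.35 and 26.81 CPM with EM shuffle, against 12.03, 14.99 and 9.25 CPM with no Abf1 (log2 fold change 1.07, SE 0.272, edgeR adjusted p = 0.0176), and its EM shuffle libraries overlapped those of WT Abf1. MRPS9 had 32.3 and 35.7 CPM with EM shuffle, about 0.99 above no Abf1 on the log2 scale (SE 0.289, edgeR adjusted p = 0.0301) and below both WT Abf1 libraries. The other genes that fell without Abf1 did not pass in this comparison.

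The 4 genes lower in EM shuffle than in no Abf1 were RSM7, RSM10, RSM26 and MRPS12, and none of them was among the genes that fell without Abf1. RSM7 (YJR113C, chrX:638232-638975) had 57.6 and 46.3 CPM with EM shuffle, against 93.3, 93.7 and 107 CPM with no Abf1. The log2 fold change was −0.91 (SE 0.198, edgeR adjusted p = 0.00949). RSM10 had 51.8 and 43.6 CPM with EM shuffle, inside the WT Abf1 range, and a log2 fold change of −0.94 against no Abf1 (SE 0.250, edgeR adjusted p = 0.0209).

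RSM26, which like MRP1 has a fold related to superoxide dismutase, had 33.7 and 36.8 CPM with EM shuffle, against 50.1, 53.4 and 55.5 CPM with no Abf1 (log2 fold change −0.59, edgeR adjusted p = 0.0243). With WT Abf1 it had 46.2 and 46.1 CPM, above the EM shuffle libraries. MRPS12 fell less, by 0.49 (edgeR adjusted p = 0.0467). DESeq2 called neither RSM26 (adjusted p = 0.102) nor MRPS12 (adjusted p = 0.116).

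The direction of these 4 decreases depends on the scale. The deposited TPM values were used without rescaling, and their sums differed between the 2 conditions. They were 13.2% and 14.1% of the full scale with EM shuffle, and 8.27%, 8.18% and 8.32% with no Abf1. On the authors' TPM, log2(TPM + 1), the median of all features was 0.66 higher in EM shuffle than in no Abf1, and RSM7, RSM10, RSM26 and MRPS12 had positive values of 0.20 to 0.53. Relative to that median they were lower, by −0.45, −0.44, −0.36 and −0.13. Calls in this comparison fell to 2, 3 and 1 without no Abf1 replicates 1, 2 and 3, and to MRP1 alone without EM shuffle replicate 2, while they numbered 9 without EM shuffle replicate 1.

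LS15 against WT Abf1 called 2 of the 31 genes, MRPS18 lower and RSM10 higher, beside 11.2% of all features, 6.76% lower and 4.47% higher. MRPS18 had 13.5 and 14.6 CPM with LS15, against 36.9 and 41.2 CPM with WT Abf1 (log2 fold change −1.46, SE 0.344, edgeR adjusted p = 0.0253). RSM10 had 112 and 88.4 CPM with LS15, against 62.9 and 40.5 CPM with WT Abf1 (log2 fold change 0.95, SE 0.276, edgeR adjusted p = 0.0457). Both moved in the direction they took without Abf1, where the same WT Abf1 libraries were the reference. With scaling factors from genes without an Abf1 match, MRPS18 and RSM28 were called, both lower, and RSM10 was not.

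The LS15 replicates disagreed on several other genes. RSM27 had 0 and 12 counts (0 and 7.31 CPM), RSM28 24.7 and 42.1 CPM, MRPS9 21.4 and 37.2 CPM, and MRP51 29.2 and 56.7 CPM in LS15 replicates 1 and 2. LS15 replicate 1, the lower one each time, is the shallowest library of the series, and a count of 0 in it allows up to 3.37 CPM. Neither of the calls was left without LS15 replicate 1 or without WT Abf1 replicate 2, and without LS15 replicate 2 the calls were RSM27, RSM28 and MRP51 instead. Only RSM10 was called without WT Abf1 replicate 1. Only MRPS18 was called without no Abf1 replicate 2, without no Abf1 replicate 3 or without either NCS506 library. The part of depth in these values was not tested.

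LS15 against no Abf1 called 0 of the 31 genes and 0 features (0%) by edgeR. At an unadjusted p under 0.05 there were 2 of the 31 genes and 359 features, and DESeq2 called 1 feature, none of the 31. The log2 fold changes of the 31 genes ranged from −0.55 to 1.17 with a median of 0.02. A missing call does not show that LS15 and no Abf1 left these genes at equal levels.

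NCS506 against WT Abf1 called none of the 31 genes, beside 0.587% of all features. At an unadjusted p under 0.05 there were 2 genes, beside 1043 of 5456 features. DESeq2 gave an adjusted p to only 1 of the 31 genes in this comparison, so its count of 0 calls (193 over all features) says little about them. The range of log2 fold changes was −0.86 to 0.57 with a median of 0.12. NCS506 against no Abf1 called MRPS9 alone, as higher, beside 3.19% of all features and 2.40% called higher. MRPS9 had 37.9 and 38.9 CPM with NCS506, against 14.04, 19.67 and 17.48 CPM with no Abf1 (log2 fold change 1.16, SE 0.286, edgeR adjusted p = 0.0498). That adjusted p is barely under the threshold, and the call was lost on leaving out any single no Abf1 or NCS506 library. RSM28 joined MRPS9, also as higher, on leaving out any single EM shuffle or LS15 library.

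**Figure D5:**
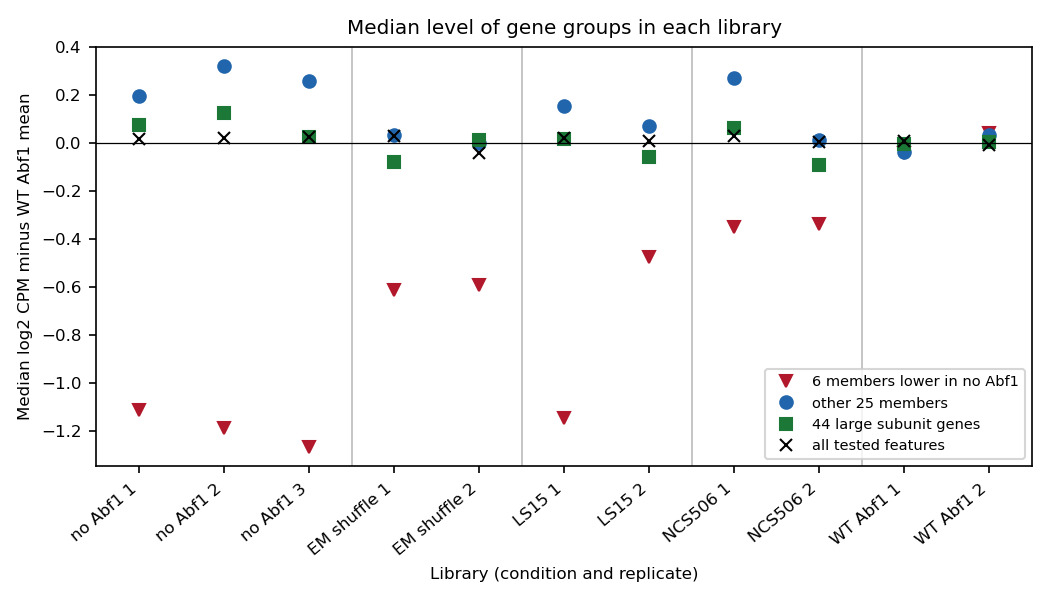
Median log2 CPM minus the WT Abf1 mean in each library (x axis, grouped by condition) for the 6 genes that fell without Abf1, the other 25 genes, 44 large subunit genes and all features. The 6 genes are at −1.11 to −1.27 with no Abf1, −0.61 and −0.59 with EM shuffle, −1.15 and −0.48 with LS15 and −0.35 and −0.34 with NCS506, while the other 25 stay between −0.04 and 0.32.

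The 6 genes that fell without Abf1 can be followed through the constructs as a description, since they were chosen by their no Abf1 and WT Abf1 values. Their median lay 0.61 and 0.59 below the WT Abf1 mean with EM shuffle, 1.15 and 0.48 below it with LS15, and 0.35 and 0.34 below it with NCS506. The no Abf1 medians, which entered the choice, were −1.11, −1.19 and −1.27. Among the construct libraries MRPS18 reached 27.5 CPM at most, beside 36.9 and 41.2 CPM with WT Abf1. RSM28 reached 49.5 CPM, beside 54.5 and 61.4 CPM. The WT Abf1 values entered the choice of these genes, and no share over all features is given beside them. Of the 6 genes, only MRPS18 with LS15 was called in a construct against WT Abf1. RSM27 had 13 and 14 raw counts (5.76 and 7.36 CPM) with EM shuffle and 15 and 18 (6.25 and 10.6 CPM) with NCS506. The ratios of its summed counts to WT Abf1 were 0.437 for EM shuffle, 0.319 for LS15 and 0.542 for NCS506. Their exact 95% intervals, 0.257 to 0.732, 0.152 to 0.622 and 0.33 to 0.884, cover counting error and not the spread between clones. RSM27 was not called in these comparisons (edgeR adjusted p = 0.333, 0.139 and 0.468 in the same order). Its WT Abf1 values entered its choice, so these intervals are no test of a fall.

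The divergent upstream neighbours of the other genes with a match were not called. EAF7, divergent from NAM9, was at −0.19, NGG1, divergent from RSM24, at −0.07 and DBP6, divergent from RSM19, at −0.13 on the log2 scale in no Abf1 against WT Abf1. DBP1, divergent from MRP51, was at −0.32 and PUP1, divergent from PET123, at 0.40. Thus both genes of the pair MRPS16 and RRP12, and of the pair MRPS18 and MCK1, fell, while at these 5 pairs neither gene passed the test. RSM10 and its distant divergent neighbour ENA1, a sodium pump gene 1335 bp away, both rose, ENA1 by 1.79 (edgeR adjusted p = 0.0455). MRPS17 was not called although GCV2, divergent from it, fell by 0.98 (edgeR adjusted p = 0.00996).

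The rest of the mitochondrial translation machinery was read from lists of named genes in no Abf1 against WT Abf1. Of 44 large subunit genes 8 were lower and 1 was higher (median log2 fold change 0.15). None of 14 mitochondrial tRNA synthetase genes (median 0.16) and none of 16 mRNA-specific translational activators (median 0.23) was called. Of 9 translation factors 1 was higher (median 0.44), and of 12 assembly and membrane factors 1 was lower (median 0.04). Within the small subunit, 4 of 19 bacterial-type genes were lower and 2 higher, and 2 of 12 mitochondria-specific genes were lower, with medians of 0.16 and 0.17. Beside all of these counts, 13.7% of all features were lower and 9.73% were higher.

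The parts of the small subunit that mitochondrial DNA encodes were not called either. VAR1 had 17.0, 9.37 and 7.20 CPM with no Abf1, against 18.5 and 9.08 CPM with WT Abf1 (log2 fold change −0.27, edgeR adjusted p = 0.781). The 15S ribosomal RNA had 24283, 21011 and 20345 CPM with no Abf1, against 25890 and 11288 CPM with WT Abf1 (0.24, edgeR adjusted p = 0.626). In both, the WT Abf1 libraries differed from each other by more than the no Abf1 libraries did from the WT Abf1 mean. SOV1, a nuclear gene needed for expression of VAR1, had 22.1, 23.4 and 21.6 CPM with no Abf1, against 27.7 and 23.0 CPM with WT Abf1 (−0.17, edgeR adjusted p = 0.682).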

How the data were processed

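Total RNA libraries (11) were made with a directional kit. The authors used STAR for alignment to sacCer3 (R64-1-1) and RSEM for quantification, in versions not given in the sources used here. They deposited whole-number counts without normalization and TPM values, whose sum in a library was 8.18% to 14.1% of the full scale. These sums were highest with EM shuffle (13.2% and 14.1%) and NCS506 (11.6% and 12.1%), and at most 9.8% in the other libraries. The sources do not say if strand was used in counting, which leaves overlapping genes such as MRP4 uncertain. Conditions came from the sample labels, and WT Abf1 replicates were numbered in accession order. Of 6834 features, 6011 matched RefSeq.

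Counts of all 11 libraries entered 1 fit with edgeR 4.0.16 in R 4.3.3 (TMM, filterByExpr, quasi-likelihood F-test, two-sided, Benjamini-Hochberg over 5456 features, adjusted p under 0.05). The fit was tested on simulated data. P-values measure the spread between clones of 1 strain, which within WT Abf1 also holds the difference in batch and rapamycin time. The plan foresaw estimated counts, but the deposited counts needed no rounding. Exact intervals (95%) and the limit for a count of 0 (3 counts) cover counting error only. Alternatives were limma 3.58.1 on log2 of TPM plus 1 or plus 0.1, DESeq2 1.42.0, other filters and scalings, fits of the compared groups only, a replicate block and each library left out. Promoters were 400 bp (or 250 bp) upstream of the start codon, since the annotated spans are coding. Values in every library were given for genes called with no overlap in no Abf1 against WT Abf1 (up to 10 falls and 3 rises) and for the 3 largest changes called in each other comparison. Other genes shown were chosen after their values were seen. Genes and lists were chosen with earlier results of these data known. Tables were read with Python 3.11.15.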

Additional observations from a re-analysis of the deposited data

How the results depend on the processing

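DESeq2 called 6 genes in no Abf1 against WT Abf1, all of them called by edgeR too (SWS2 and MRP2 were lost). In EM shuffle against no Abf1 it called 4 of 6 (RSM26 and MRPS12 were lost). Over all features DESeq2 called 1143 and 1086 of 5456 in these comparisons. With at least 10 counts in every library, a filter that removes RSM27 and MRPS16, NCS506 against no Abf1 gave 0 calls. With limma on log2(TPM + 1) and log2(TPM + 0.1), calls were 0 and 0 for no Abf1 against WT Abf1, 17 and 15 for EM shuffle against WT Abf1, 0 and 0 for LS15 against WT Abf1, 18 and 17 for NCS506 against WT Abf1, 20 and 17 for EM shuffle against no Abf1, and 26 and 22 for NCS506 against no Abf1, those of the constructs all higher. Over all features log2(TPM + 1) called 3213, 2914, 4067 and 4319 of 5456 in the EM shuffle and NCS506 comparisons in the same order. The TPM sums, higher in the EM shuffle and NCS506 libraries than in the others, were not made equal before these fits. On those scales the median of all features moved to 0.60 and 0.97 for EM shuffle against WT Abf1 and to 0.56 and 0.95 for NCS506 against WT Abf1, 0.66 and 1.07 for EM shuffle against no Abf1 and 0.65 and 1.03 for NCS506 against no Abf1, and in EM shuffle against no Abf1 the sign turned for MRPS12 (0.53 and 0.59), RSM7 (0.20 and 0.27), RSM10 (0.21 and 0.27) and RSM26 (0.29 and 0.45). Fits of only the groups compared called 0 in LS15 against WT Abf1 and 6 in NCS506 against no Abf1. With the replicate block, calls were 3 in EM shuffle against no Abf1, 0 in LS15 against no Abf1 and 0 in NCS506 against no Abf1. In the same 9 libraries without it they were 6, 0 and 1, beside 1377, 0 and 228 features. The numbers only name clones, and same-numbered libraries correlated at −0.16 to 0.37. Leaving out 1 library at a time gave 1 to 9 calls for no Abf1 against WT Abf1, 0 to 2 for EM shuffle against WT Abf1, 0 to 3 for LS15 against WT Abf1, 0 to 0 for NCS506 against WT Abf1, 1 to 9 for EM shuffle against no Abf1, 0 to 0 for LS15 against no Abf1 and 0 to 2 for NCS506 against no Abf1. Where no feature count stands beside the calls of an alternative, those calls cannot be set against the background. The stricter consensus matched 3 genes. The causes of these differences were not tested.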
